A study of Mus musculus with 10 samples.

Results

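Interferon-stimulated genes were followed in interscapular brown adipose tissue (iBAT) of 5 Axl KO and 5 WT mice. The list held 45 genes of the response to interferon, chosen by name: receptors, signal transducers, feedback inhibitors, nucleic acid sensors and antiviral effectors. All 45 were found among the 41249 genes of the count tables. Of these, 37 passed the filter for testing, a mean above 1 CPM (counts scaled to library size) over the 10 mice, as did 13739 genes in all. The Axl KO mice lacked the receptor tyrosine kinase AXL in every tissue, so an effect of its loss outside brown fat cannot be told apart from one within it. Their allele was a knockout-first cassette placed between exons 4 and 5 of Axl. The line was made from modified embryonic stem cells and bred with C57Bl6 mice, and the WT mice were littermates. All mice were male. Both groups received a high-fat diet (HFD) for 24 weeks from 6 to 8 weeks of age. Each mouse gave 1 library of polyA RNA from the whole depot.

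Interferons are secreted when a cell senses foreign or misplaced nucleic acid. Type I interferons bind the receptor pair IFNAR1 and IFNAR2. The kinases on this receptor then activate transcription factors that switch on a large set of target genes through a DNA element called the interferon-stimulated response element (ISRE). AXL belongs to the TAM receptors, with TYRO3 and MERTK. In dendritic cells these receptors induce SOCS1 and SOCS3, which shut the response down, and this gives the comparison its question: whether the response differs in brown fat without AXL.

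The 10 libraries held between 5431014 and 9580215 counts, and no 2 libraries agreed within sampling noise. Axl itself followed the labels, with 2.01, 1.95, 1.75, 0.437 and 1.69 CPM in Axl KO replicates 1 to 5 and 52.3, 38.2, 41.3, 38.5 and 45.2 CPM in WT replicates 1 to 5. All 10 brown adipocyte markers were well expressed, with a summed level of 8544 to 11862 CPM in Axl KO and 6642 to 8820 CPM in WT. Skeletal muscle markers ranged from 4.51 to 2865 CPM in Axl KO and from 708 to 3435 CPM in WT, and Axl KO replicates 1 and 2 were the lowest mice. Macrophage markers summed to 136 to 254 CPM in Axl KO and 153 to 238 CPM in WT. No T and NK cell marker out of 10 reached the filter. Of 9 dendritic cell markers 4 did, among them Bst2 and Tcf4, at means of 10.2 and 143 CPM. Siglech and Ccr9, also markers of plasmacytoid dendritic cells, stayed at or below 0.683 CPM. In whole tissue, fewer cells of a type and less RNA per cell cannot be told apart.

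None of the tested interferon-stimulated genes passed the test between Axl KO and WT iBAT. By edgeR's quasi-likelihood test, 0 of the 37 tested genes passed an adjusted p of 0.05, against 1 of 13739 genes overall (0.00728%), which was Axl. DESeq2 also called 0 of the 37. By edgeR none reached an unadjusted p of 0.05 either, a level that 8.4% of all tested genes reached. The 5 Axl KO values and the 5 WT values overlapped for every tested gene of the list. They were fully separated for 1.35% of all genes, a share that 0 of 37 lies near. By direction, 17 of the 37 were higher in Axl KO and 20 were lower, with 49.8% of all genes higher. The median log2 fold change (Axl KO minus WT) of the list was -0.012, beside -0.00059 over all genes.

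**Figure D1:**
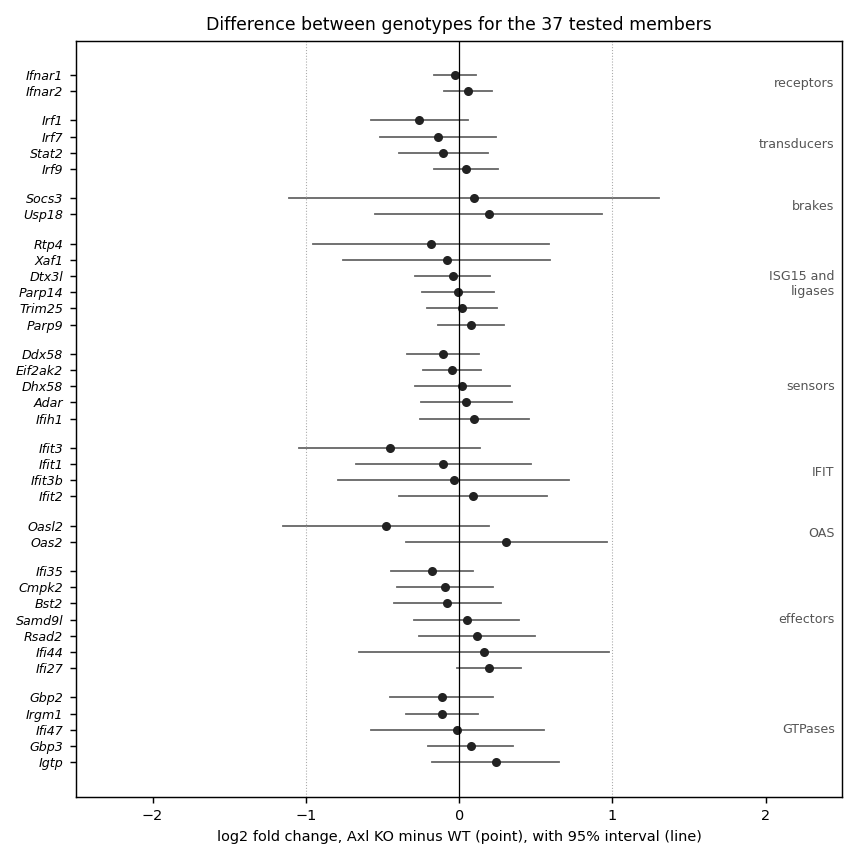
Fitted log2 fold change, Axl KO minus WT, for the 37 tested genes of the list, grouped by role on the vertical axis. Points are edgeR estimates, lines are 95% intervals, and dotted lines mark a 2-fold change in either direction. Every interval crosses 0, and the widest are those of weakly expressed genes and of Socs3.

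The size of the differences that remained possible was limited. Estimates ran from -0.48 for Oasl2 to 0.31 for Oas2, and none reached 0.5 in size, which 4.94% of all genes did. For 34 of the 37 genes the whole 95% interval lay within a 2-fold change, and for 26 of them it lay within 1.5-fold. Of all 13739 tested genes, 12611 and 9784 did so, which are similar shares. Socs3, Ifit3 and Oasl2 were the exceptions to the 2-fold bound. The median standard error was 0.16 on the log2 scale, beside 0.12 for all genes, so the list was measured less precisely than a typical gene. The 8 untested genes (Socs1, Isg15, Zbp1, Oas1a, Oas3, Oasl1, Mx1 and Mx2) fell below the filter over all 10 mice.

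**Figure D2:**
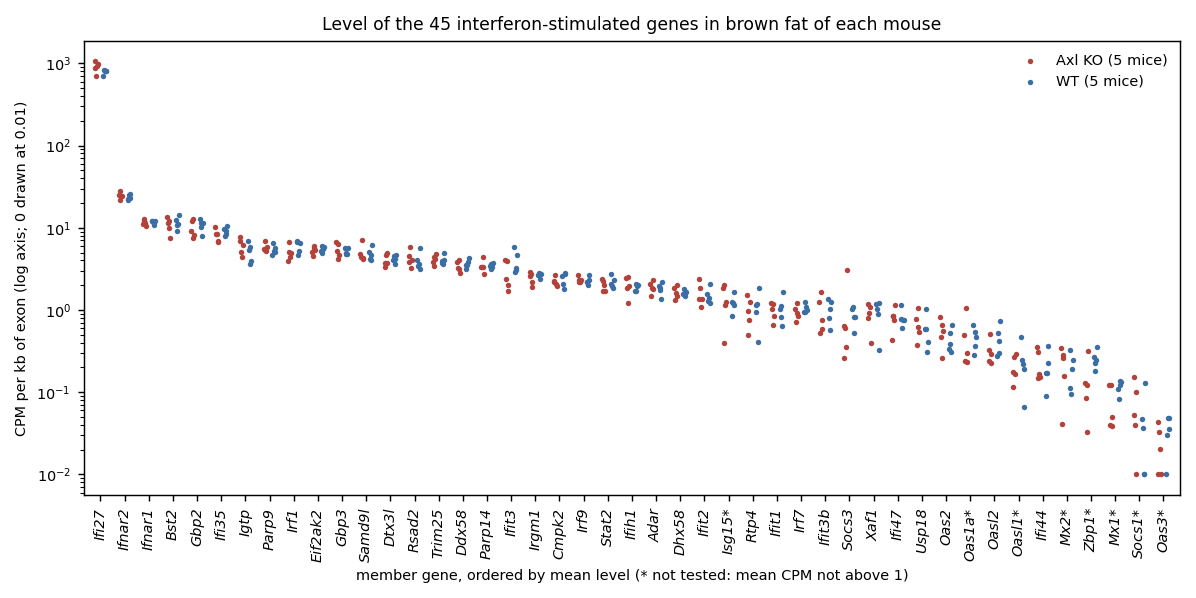
Level of each of the 45 genes in every mouse, in CPM per kilobase of exon on a log axis, ordered by the mean over 10 mice (red, Axl KO; blue, WT; asterisks, genes below the filter; zeros drawn at 0.01). Ifi27 stands far above the rest, and the red and blue points overlap for each tested gene.

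The ligands were almost undetected. Of 14 interferon genes looked up (Ifna subtypes, Ifnb1, Ifnk, Ifne, Ifng, Ifnl2 and Ifnl3), 13 had no count in any mouse, and Ifng had 1 count in WT replicate 3. Over all 10 mice together, a count of 0 allows a level of up to 0.0411 CPM, taken as 3 counts and covering counting error alone. Apart from that single count, ligand transcripts were not detectable at this depth in either genotype.

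The receptors were the steadiest genes of the list, with ratios of the highest to the lowest mouse of 1.28 for Ifnar2 and 1.22 for Ifnar1. Ifnar2, the high-affinity binding subunit, stood at 83.3, 92.3, 72.0, 80.8 and 81.3 CPM in Axl KO replicates 1 to 5 and at 73.2, 74.7, 83.2, 85.4 and 76.4 CPM in WT replicates 1 to 5. The groups overlapped almost completely, with the highest and the lowest mouse both among the Axl KO. The means were 81.9 ± 7.22 and 78.6 ± 5.43 CPM (SD, n = 5 each), a log2 fold change of 0.060 with a standard error of 0.072 and an edgeR adjusted p of 0.828. Ifnar1, the signalling subunit, averaged 68.4 ± 5.34 CPM in Axl KO and 69.7 ± 3.38 CPM in WT (SD, n = 5 each), with overlapping mice. Per kilobase of exon, Ifnar2 (24.1 CPM) and Ifnar1 (11.6 CPM) ranked directly below the most abundant gene of the list, Ifi27.

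Among the transducers, 3 of 4 genes had lower estimates in Axl KO and none passed. Irf1, a transcription factor that drives part of the response to both interferon types, measured 15.6, 20.4, 26.5, 17.5 and 19.4 CPM in Axl KO replicates 1 to 5. In WT replicates 1 to 5 it measured 27.3, 26.4, 18.7, 20.98 and 25.9 CPM. Axl KO replicate 3 sat with the high WT mice and WT replicate 3 sat with the low Axl KO mice. Its log2 fold change came to -0.26 (standard error 0.15) at an unadjusted p of 0.0989 and an adjusted p of 0.641 by edgeR. Without Axl KO replicate 3 the estimate was -0.39 with an adjusted p of 0.204, which still missed the threshold. Stat2 and Irf9, both part of the factor that binds the ISRE, had estimates of -0.10 and 0.044, and Irf7, which amplifies interferon production, had -0.14.

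None of the tested feedback inhibitors passed the test. Socs3 measured 1.85, 0.751, 1.75, 1.02 and 8.84 CPM in Axl KO replicates 1 to 5 and 3.00, 3.17, 1.50, 2.41 and 2.39 CPM in WT replicates 1 to 5. Axl KO replicate 5 was well above every other mouse, and the remaining Axl KO mice lay at the lower end of the WT range or below it. Its log2 fold change was 0.098 with a 95% interval of -1.11 to 1.31, the widest of the list, and an edgeR adjusted p of 0.978. Without Axl KO replicate 5 the direction turned, to -0.87 with an unadjusted p of 0.0162 and an adjusted p of 0.646. Its coefficient of variation in Axl KO was 119%, where counting alone gives 23.3%. Socs1 measured 0.154, 0.451, 0.117, 0.291 and 0 CPM in Axl KO replicates 1 to 5 and 0.137, 0.106, 0, 0 and 0.378 CPM in WT replicates 1 to 5. It had 7 counts in the Axl KO mice together and 5 in the WT mice, never more than 3 in one mouse, and no difference was detectable at this depth. Usp18, a protease that removes ISG15 and blocks IFNAR2, averaged 1.88 ± 0.706 CPM in Axl KO and 1.62 ± 0.766 CPM in WT (SD, n = 5 each), and the mice overlapped.

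**Figure D3:**
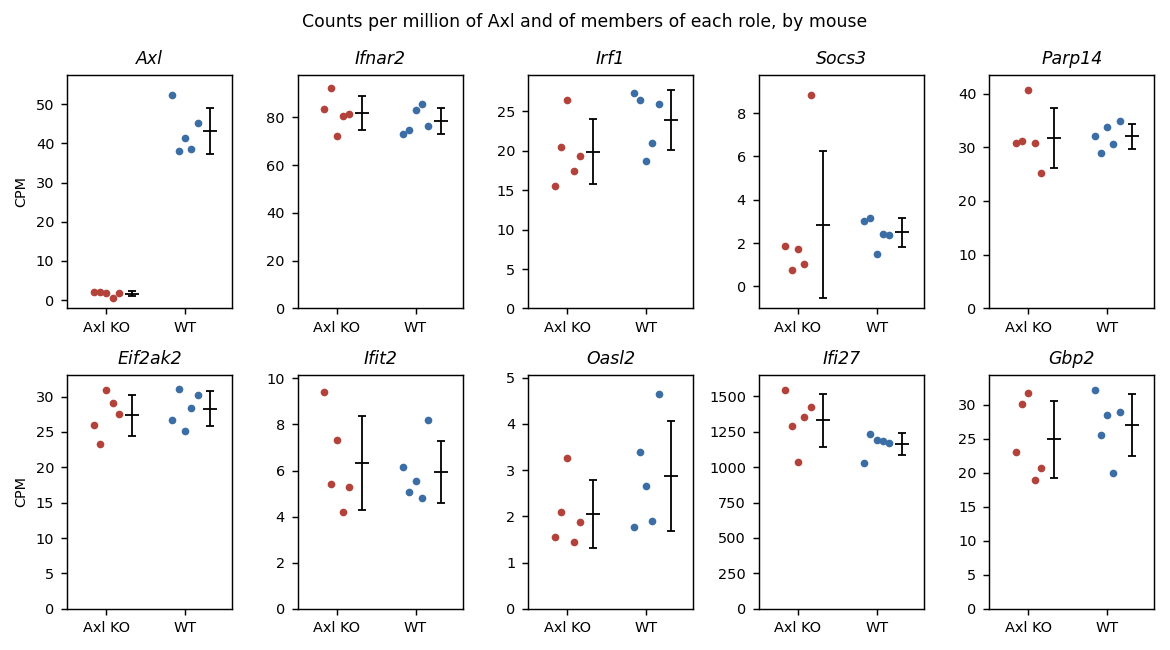
CPM of Axl and of 9 genes of the list in each mouse (points; red, Axl KO; blue, WT), with the mean and SD of 5 mice beside them on axes that include 0. Axl separates the genotypes, the 9 interferon-stimulated genes do not, and the Socs3 mean in Axl KO is carried by a single mouse at 8.84 CPM.

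Isg15 encodes the ubiquitin-like protein that gives the modification its name, and it was close to the limit of detection. It measured 1.39, 0.301, 1.52, 0.873 and 0.941 CPM in Axl KO replicates 1 to 5 and 0.956, 0.635, 0.925, 0.860 and 1.26 CPM in WT replicates 1 to 5. The total was 35 counts in the Axl KO and 36 in the WT mice, and the WT mice lay inside the Axl KO range. Of the 6 genes grouped with it, not all of them ligases, all were above the filter and none passed the test. Parp14, an ADP-ribosyltransferase with the highest mean CPM of them, not scaled to length, measured 30.9, 31.1, 40.7, 30.9 and 25.2 CPM in Axl KO replicates 1 to 5 and 32.1, 29.0, 33.8, 30.6 and 34.9 CPM in WT replicates 1 to 5. Both the highest and the lowest mouse were Axl KO. Its log2 fold change was -0.0062 (standard error 0.11, edgeR adjusted p = 0.996). Parp9, its partner Dtx3l, the RIG-I ligase Trim25, Rtp4 and Xaf1 had estimates between -0.18 and 0.077. Dtx3l and Parp9 are neighbours on opposite strands and share 458 exonic bases, so their reads cannot be fully told apart where strand was not used in counting.

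None of the 5 tested sensors of foreign nucleic acid passed the test. Eif2ak2 encodes PKR, the kinase that stops translation when it meets double-stranded RNA. It measured 25.9, 23.3, 30.9, 29.1 and 27.5 CPM in Axl KO replicates 1 to 5 and 26.6, 31.1, 25.1, 28.4 and 30.2 CPM in WT replicates 1 to 5, with overlapping groups. Its log2 fold change was -0.047 (standard error 0.088, edgeR adjusted p = 0.901). The estimates for Ddx58 (RIG-I), Ifih1 (MDA5), Dhx58 (LGP2) and the RNA editor Adar lay between -0.10 and 0.099. The exons of Adar overlap those of Chrnb2 on the opposite strand by 1365 bases. Zbp1, a sensor of left-handed nucleic acid and below the filter, had 15 counts in the Axl KO mice together and 35 in the WT mice. Its levels were 0.463, 0.301, 0.117, 0.437 and 1.13 CPM in Axl KO replicates 1 to 5 and 0.956, 0.635, 0.809, 0.860 and 1.26 CPM in WT replicates 1 to 5. Only Axl KO replicate 5 lay within the WT range, and a two-sided exact permutation test gave p = 0.0635 on log2 CPM with a prior count of 2 and p = 0.0476 with a prior count of 0.5, neither adjusted for the 45 genes so compared, where 5 mice against 5 can reach 0.00794.

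The IFIT proteins bind viral RNA that lacks the host's cap methylation, and their genes are widely used as markers of a type I response. None of the 4 passed the test. Ifit2 measured 9.41, 5.41, 7.34, 4.22 and 5.27 CPM in Axl KO replicates 1 to 5 and 6.14, 5.08, 5.55, 4.81 and 8.18 CPM in WT replicates 1 to 5. Axl KO replicate 1 was the highest mouse and Axl KO replicate 4 the lowest. For Ifit2 the estimate was 0.092 on the log2 scale, with a standard error of 0.22 and an edgeR adjusted p of 0.927. Ifit3 had one of the 2 lowest estimates of the list, -0.45 with a 95% interval of -1.04 to 0.14 and an edgeR adjusted p of 0.657, and its mice overlapped. Ifit3 and its copy Ifit3b share 51.2% and 44.5% of their 50-base transcript words with each other, so the split of reads between them is uncertain. Ifit1 averaged 2.62 ± 0.625 CPM in Axl KO and 2.80 ± 1.02 CPM in WT (SD, n = 5 each).

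The OAS genes belong to a family whose active enzymes make the short oligoadenylates that activate RNase L. They were among the weakest of the list. Only Oas2 and Oasl2 passed the filter, and their estimates had opposite signs. Oasl2 measured 1.54, 2.10, 3.26, 1.46 and 1.88 CPM in Axl KO replicates 1 to 5 and 1.77, 3.39, 2.66, 1.89 and 4.66 CPM in WT replicates 1 to 5. WT replicate 5 was the highest and the rest were interleaved. For Oasl2 the estimate was -0.48 on the log2 scale, with a standard error of 0.31 and an edgeR adjusted p of 0.677. Oas2 had 0.31 (standard error 0.30, edgeR adjusted p = 0.796). Oas1a, Oas3 and Oasl1 averaged 0.872, 0.184 and 0.577 CPM over all mice, and 57.6% of the 50-base words of Oas1a also occur in Oas1g.

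Ifi27, a small membrane protein gene induced by type I interferon, was by far the most abundant gene of the list. Its mean level per kilobase of exon was 849 CPM, beside 24.1 CPM for the next gene. It measured 1547, 1291, 1036, 1352 and 1423 CPM in Axl KO replicates 1 to 5 and 1027, 1231, 1189, 1184 and 1173 CPM in WT replicates 1 to 5. The 4 highest mice were Axl KO replicates 1, 5, 4 and 2, while Axl KO replicate 3 lay next to the lowest WT mouse. The means were 1330 ± 190 and 1161 ± 77.9 CPM (SD, n = 5 each). The log2 fold change of 0.20 (standard error 0.096) had an unadjusted p of 0.0637 and an adjusted p of 0.601 by edgeR, the smallest adjusted p of the list. Without Axl KO replicate 3 it was 0.27 with an adjusted p of 0.152. Its unadjusted p was 0.0488 by DESeq2, and by edgeR 0.0483 without the filter and 0.0468 with the robust fit. Over all alternative fits, those with marker levels as covariates among them, the Ifi27 estimate ran from 0.0053 to 0.27. The brown adipocyte markers were also highest in the 4 mice with the most Ifi27, and whether they account for its difference was not tested. Their mean log2 level relative to all mice was 0.51, 0.27, 0.17 and 0.14 in Axl KO replicates 5, 1, 4 and 2, the same 4 mice, and between -0.48 and -0.031 in Axl KO replicate 3 and the 5 WT mice. All 10 of these markers had higher estimates in Axl KO, so their level and the genotype cannot be told apart.

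None of the other antiviral effectors passed the test. Rsad2 encodes viperin, which makes a chain-terminating nucleotide, and it averaged 18.6 ± 4.10 CPM in Axl KO and 17.2 ± 4.24 CPM in WT (SD, n = 5 each). Its genomic neighbour Cmpk2 had an estimate of -0.092. Bst2 (tetherin), Samd9l, Ifi44 and Ifi35 had estimates between -0.18 and 0.16. Mx1 and Mx2, whose products are defective in C57BL/6 strains, stayed below the filter, with 10 and 27 counts in the Axl KO mice together and 17 and 28 in the WT mice. The interferon-inducible GTPases, which attack the vacuoles of intracellular parasites and are driven mainly by interferon gamma, did not pass either. Gbp2 measured 23.0, 30.1, 31.7, 18.9 and 20.7 CPM in Axl KO replicates 1 to 5 and 32.1, 25.5, 28.4, 19.9 and 28.9 CPM in WT replicates 1 to 5, and the groups overlapped throughout. Its log2 fold change was -0.11 (standard error 0.16, edgeR adjusted p = 0.857). Gbp3, Ifi47, Igtp and Irgm1 had estimates between -0.11 and 0.24.

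The genes of the list varied together from mouse to mouse, with the mice of both genotypes pooled. After the genotype means were removed, the median pairwise correlation over the 10 mice was 0.256 among the 37 tested genes, beside -0.00059 over all pairs of tested genes. A positive correlation was found in 72.7% of the pairs of the list and in 49.9% of all pairs. These are descriptions over 10 mice that share their libraries between genes, and no test was made. The genes that followed the others most were Ifit2 (mean correlation with the rest 0.424), Ifit1 (0.416), Samd9l (0.413) and Gbp3 (0.401). The genes that did so least were Ifnar2 (-0.343), Ifi27 (-0.195) and Ifi47 (-0.118).

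**Figure D4:**
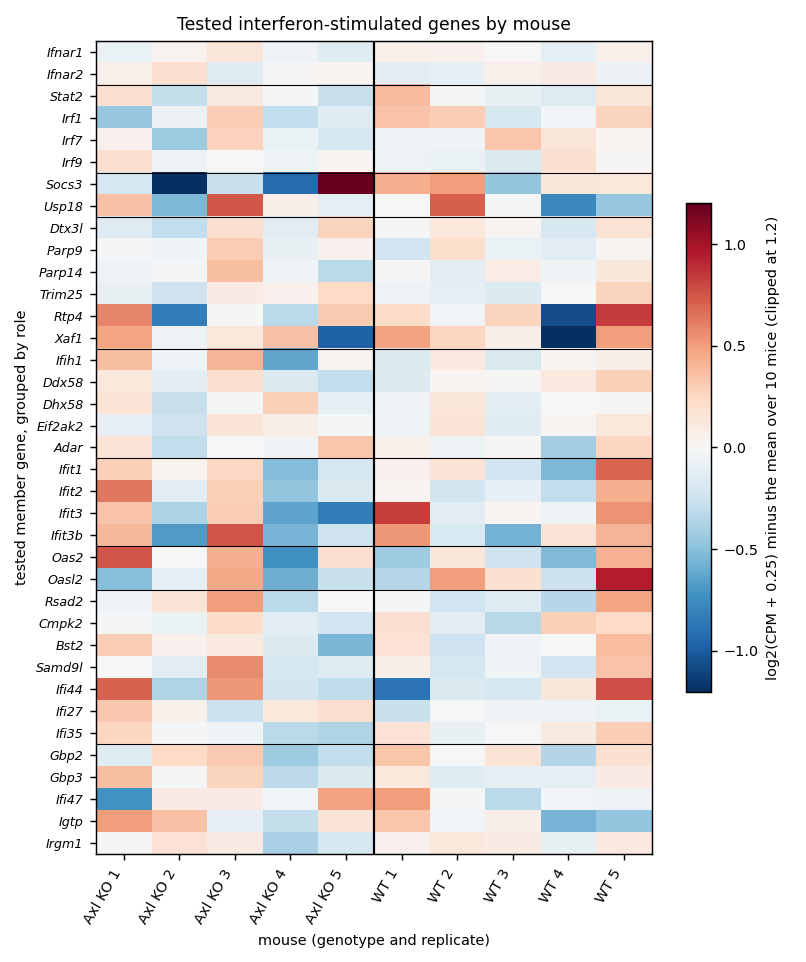
Heat map of the 37 tested genes (rows, grouped by role) in the 10 mice (columns), as log2(CPM + 0.25) minus the gene's mean over all mice. Columns stand out more than genotypes: Axl KO replicate 3 and WT replicate 5 are mostly red, and Axl KO replicate 4 and WT replicate 4 are mostly blue.

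The high and the low mice came from both genotypes. The mean log2 level of the 37 genes, relative to all mice, was 0.13, -0.15, 0.21, -0.22 and -0.063 in Axl KO replicates 1 to 5. In WT replicates 1 to 5 it was 0.066, 0.030, -0.070, -0.17 and 0.23. WT replicate 5 was the highest mouse for 9 genes and Axl KO replicate 3 for 8, while Axl KO replicate 2 and WT replicate 4 were each the lowest for 8 and Axl KO replicate 4 for 7. The group means were -0.018 ± 0.18 and 0.018 ± 0.15 (SD, n = 5 each), so the difference between genotypes was much smaller than the spread within them. For the 4 IFIT genes the range over mice was wider, from -0.54 in Axl KO replicate 4 to 0.52 in WT replicate 5.

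Markers of several cell types, though not of all, had their highest levels in the same 2 mice. Whether they account for the shared variation was not tested, and only the macrophage level was removed from the correlations. For macrophage markers the mean log2 level relative to all mice was 0.42 in Axl KO replicate 3 and 0.34 in WT replicate 5, and it was -0.51 in Axl KO replicate 4 and -0.27 in WT replicate 4. For dendritic cell markers it was 0.35 in Axl KO replicate 3 and 0.41 in WT replicate 5, with the lowest level, -0.54, in WT replicate 4. Only 4 of these 9 markers were tested and enter that level (Bst2, Tcf4, Zbtb46 and Itgax). Bst2 is also a gene of the list, so this level is not independent of it. For endothelial markers it was 0.18 and 0.33 in the same 2 mice. B cell markers, of which 1 was tested, differed: they stood at 0.41 and 1.25, with WT replicate 1 between them at 0.71. Other lists differed too. Fibroblast and skeletal muscle markers were highest in WT replicate 3 (0.34 and 2.53). Neutrophil markers, of which 1 was tested, were highest in WT replicate 1 (0.63). Erythroid markers were highest in Axl KO replicates 3 and 5 (0.43 and 0.40). Once the macrophage level was removed together with the genotype, the median pairwise correlation of the list was 0.108. No such value was computed for all genes or for another marker list, so macrophages cannot be told apart from other cell types here. With the macrophage level as a covariate in the fit, 20 of the 37 genes had higher estimates in Axl KO, none passed, and the smallest adjusted p was 0.626.

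**Figure D5:**
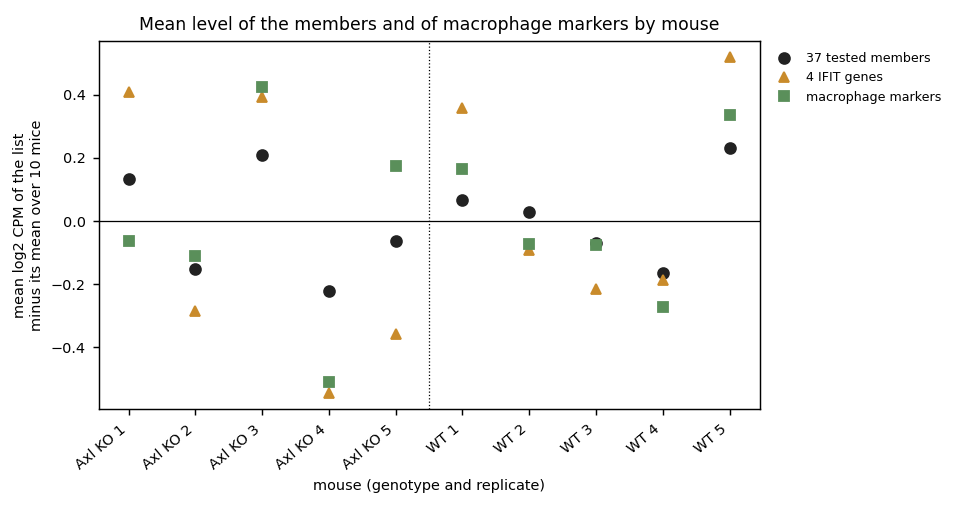
Mean log2 CPM of 3 gene groups in each mouse, minus the group's mean over 10 mice (black, the 37 tested genes; orange, the 4 IFIT genes; green, macrophage markers; dotted line, border between genotypes). The list ranges from -0.22 to 0.23 and the genotypes overlap, with the 2 highest mice and the 2 lowest split between Axl KO and WT.

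The spread between mice was larger for these genes than for most. The median coefficient of variation was 20.8% in Axl KO and 16.6% in WT, beside 13.3% and 11.3% for all tested genes. Counting error made up part of this for the weak genes. For Ifit3 counting alone gives 15.1%, and the observed values were 38.9% in Axl KO and 31.9% in WT. For Parp14 counting gives 6.51%, beside 17.6% in Axl KO and 7.36% in WT.

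The promoters of the list carried interferon elements more often than promoters at large, and the list was made of genes known for this response. The ISRE core was searched on both strands as GAAA repeated after any 2 bases, in RefSeq windows from 250 bases before to 50 bases after each start (GRCm38.p6). Windows were found for 35 of the 45 genes, and 17 of them (48.6%) held the core, beside 3.99% of 27025 genes. Some cores overlapped one another, as in Isg15, Bst2 and Irgm1. Of the genes with a core 13 were tested, 4 higher and 9 lower in Axl KO, with a median log2 fold change of -0.077. Of those without a core 17 were tested, 8 higher and 9 lower, with a median of -0.012. The median of the mean correlation with the rest of the list was 0.339 with a core and 0.22 without.

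The 4 genes with a core and the highest mean CPM are shown as examples of targets that carry the element and were expressed in this tissue at levels that overlapped between genotypes. Each stretch reads 5′ to 3′ on the strand of the gene, at most 30 bases run past the start, and capitals mark the core on either strand.
Eif2ak2 (chr17:78882543-78882642, minus strand): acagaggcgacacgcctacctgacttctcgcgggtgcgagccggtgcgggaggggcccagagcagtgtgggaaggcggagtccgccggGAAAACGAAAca
Gbp2 (chr3:142620559-142620658, plus strand): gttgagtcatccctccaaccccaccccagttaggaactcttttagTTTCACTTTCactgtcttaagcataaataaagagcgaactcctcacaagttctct
Ddx58 (chr4:40239796-40239895, minus strand): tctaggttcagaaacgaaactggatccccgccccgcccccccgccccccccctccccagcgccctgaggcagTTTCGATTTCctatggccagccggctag
Rsad2 (chr12:26456518-26456617, minus strand): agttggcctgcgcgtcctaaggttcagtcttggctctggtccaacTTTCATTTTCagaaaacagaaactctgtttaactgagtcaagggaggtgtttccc

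The core began 18 bases after the first transcribed base in Eif2ak2 and 2 bases after it in Ddx58. In Gbp2 and Rsad2 it began 59 and 120 bases before the start. The log2 fold changes of these 4 genes were -0.047, -0.11, -0.10 and 0.12 in the order shown, all with adjusted p-values of at least 0.807 by edgeR.

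The other genes of the interferon pathway did not pass the test either. Of 104 further genes (ligands, other receptors and kinases, STATs and IRFs, inducers, brakes and other targets), 77 were tested and none passed. Their median log2 fold change was -0.0016, with 38 higher and 39 lower in Axl KO. At an unadjusted p of 0.05 there were 6, of which 1 was higher (4.54% of all genes were) and 5 were lower (3.86% of all genes were).

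Herc6, the ligase that attaches ISG15 to proteins in the mouse, had the smallest p of these. It measured 4.94, 5.86, 7.81, 4.80 and 4.70 CPM in Axl KO replicates 1 to 5 and 8.33, 6.98, 8.32, 8.08 and 9.19 CPM in WT replicates 1 to 5. Axl KO replicate 3 alone reached the WT range. Its log2 fold change came to -0.52 (standard error 0.16) at an unadjusted p of 0.00603 and an adjusted p of 0.571 by edgeR. The estimates were -0.26 for Ticam1, the adaptor of Tlr3, and -0.27 for Tlr3 itself, an endosomal sensor of double-stranded RNA. They were -0.41 for Nmi, a STAT-binding protein, and -0.54 for Cxcl9, a chemokine induced by interferon gamma. The direction of Cxcl9 turned, to 0.023, with the brown adipocyte marker level as a covariate. The smallest adjusted p among these 4 genes was 0.571 by edgeR, so none of them stood apart after adjustment.

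Of the other TAM genes, Mertk averaged 12.4 ± 1.38 CPM in Axl KO and 11.7 ± 1.03 CPM in WT (SD, n = 5 each), and Tyro3 stayed below the filter in both genotypes. Gas6, the ligand of AXL, averaged 38.7 ± 6.76 CPM in Axl KO and 48.6 ± 7.43 CPM in WT (SD, n = 5 each), with overlapping mice, a log2 fold change of -0.33 and an edgeR adjusted p of 0.571.

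Which mice were included decided how close single genes came to the threshold, but never a call. Without Axl KO replicate 3, 3 genes of the list had an unadjusted p under 0.05 (Irf1 and Oasl2 lower, Ifi27 higher), while 14.8% of all genes then did, and the smallest adjusted p of the list was 0.152. In each of the other 9 fits that left out 1 mouse, at most 1 gene of the list did so.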

How the data were processed

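The authors deposited 1 table of raw read counts per mouse, with Ensembl gene identifiers; the sample records name bcl2fastq, Trimmomatic 0.36, STAR 2.6.1c, DESeq2 and the build GRCm38.p5, from polyA RNA libraries. The methods of the study name a different trimmer, aligner and RNA selection, and another age at the start of the diet, so the records were followed. The counting tool and its strand setting are not given in the sources used here, so genes that overlap on opposite strands may share reads.

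Symbols, coordinates and exon lengths came from GENCODE M21 (GRCm38), and promoter windows from RefSeq. Shared sequence was measured over 50-base words of annotated transcripts. Genes with a mean CPM above 1 over the 10 mice were kept, scaled by TMM and fitted with edgeR 4.0.16 in R 4.3.3 (quasi-likelihood test, genotype alone, Benjamini-Hochberg adjustment over all 13739 genes, threshold 0.05). CPM values are TMM-scaled, and levels were ranked between genes per kilobase of exon, except that genes to show were picked by mean CPM. Single genes were also compared by a two-sided exact permutation test over the 252 splits of 5 against 5 mice, on log2 CPM with a prior count of 2 or, as an alternative, 0.5. The fit was tested on simulated data.

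Alternatives were DESeq2 1.42.0, its size factors in edgeR, other filters, a robust fit, protein-coding genes alone, marker levels as covariates, the replicate number as a block, and each mouse left out in turn. The covariates from 2 lists (skeletal muscle and brown adipocyte markers) were added after the data were seen. Depth was 5431014 to 9580215 counts per mouse, at which 3 counts correspond to 0.317 to 0.565 CPM after TMM scaling.

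The genes of the list and the other gene lists were chosen with earlier results of these data known. Genes with values in every mouse were Axl, Socs1 and Socs3, the gene of highest mean CPM in each role, and any with an unadjusted p under 0.05 or separated groups, of which there were none. Of the other pathway genes, those with an unadjusted p under 0.05 were named, except 1 that is not reported here. The values by mouse of Isg15, Zbp1 and Herc6 and the estimates of Ifit3 and Oas2 are given outside this rule, chosen after their values were seen.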

Additional observations from a re-analysis of the deposited data

Results flagged for a closer look

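In 4 of 76 groups of 5 mice examined, for Axl and the 37 tested genes, 1 mouse lay far from the others by Dixon's gap ratio, and chance flags about 1 group in 20, or 3.8 groups here. Axl measured 0.437 CPM in Axl KO replicate 4, below the other Axl KO mice at 1.69 CPM or more. Socs3 measured 8.84 CPM in Axl KO replicate 5, with the next Axl KO mouse at 1.85 CPM. Samd9l, an antiviral factor that blocks translation, measured 38.7 CPM in Axl KO replicate 3, with the next Axl KO mouse at 25.9 CPM. Ifi27 measured 1027 CPM in WT replicate 1, with the next WT mouse at 1173 CPM.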

How the results depend on the processing

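No gene of the list passed an adjusted p of 0.05 under any alternative, and Axl passed under all of them. DESeq2 called 9 genes in all, none of them on the list. The number of listed genes with an unadjusted p under 0.05 was 1, Ifi27, with DESeq2 (6.93% of all genes), without a filter (6.49%) and with the robust fit (8.26%). It was 1, Rsad2, with the macrophage covariate (7.9%) and 1, Ifi35, with the skeletal muscle covariate (6.64%). It was 2 with the brown adipocyte covariate (2.5%), a level that nearly follows the genotype, and 0 to 3 when 1 mouse was left out (5.94% to 14.8%). The median log2 fold change of the list ran from -0.097 to 0.050 when 1 mouse was left out. The other pathway genes with an unadjusted p under 0.05 ran from 3 to 11 in those fits.

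Some estimates changed sign and the cause was not tested. Parp14 was 0.019 with the macrophage, 0.017 with the muscle and 0.28 with the brown adipocyte covariate. With the muscle covariate Ifnar2 was -0.0043, Eif2ak2 0.019 and Ifit2 -0.042. With the brown adipocyte covariate Socs3 was -1.44, Gbp2 0.21 and Cxcl9, at -0.54 without it, 0.023. When 1 mouse was left out, Parp14 ran from -0.12 to 0.062, Ifit2 from -0.088 to 0.23, Eif2ak2 from -0.098 to 0.0062 and Socs3 from -0.87 to 0.34.

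With the replicate number as a block, 0 genes of the list passed and Socs3 was -0.16. The numbers are shared names: the deviations of same-numbered mice correlated at -0.19, 0.37, 0.053, 0.060 and -0.36, and 2 of 10 mice correlated best with their own number. Depth limits the 8 untested genes most.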
